A study of Mus musculus with 35 samples.

Results

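The genes described here are 8 posterior Hox genes of the A and C clusters, Hoxa6, Hoxa7, Hoxa9, Hoxa10, Hoxc6, Hoxc8, Hoxc9 and Hoxc10, of 34 Hox genes and 21203 genes measured. They were chosen from these data, because their reads at 1 week appeared in the mice given cells and not in the mice given buffer or sham surgery. The levels that chose them are therefore given below as a description, without a test. That picture holds for 5 of the 8 genes, which had at most 3 counts in any other mouse. Of these, Hoxa6 follows it only weakly, with counts in 5 of the 10 cell-treated mice at 1 week and at most 4 in any. The picture holds in part for Hoxc8 and Hoxc9, and not for Hoxa7, whose counts overlapped in every group.

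RNA was sequenced from tissue around the injection site in the left hemisphere of male C57BL/6NCrl mice. Injured mice had a closed head injury and, days later, an injection into the left hippocampus of PBS, of mesenchymal stem/stromal cells (MSCs) or of MSCs given synthetic mRNA for the cytokine IL-4 by transfection (IL-4 MSCs), and were taken at 1 or 3 weeks after injury. The MSCs were bought primary cells of the C57BL/6N strain, so host and injected cells could not be told apart by their sequence, and all came from 1 vendor stock. Sham mice had surgery with neither impact nor injection, and those of both weeks formed 1 group. There were 5 mice in each group, except 4 in the PBS group at 3 weeks, and 34 libraries of 29838423 to 41554322 estimated counts. The labels call the tissue left cortex, and summed markers of neurons and glia ran from 6239 to 7340 CPM (estimated counts scaled to a common library total) in the sham and 1-week libraries.

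Hox genes encode homeodomain transcription factors that lie in 4 clusters, and their order along a cluster follows the head-to-tail order in which they are used in the embryo. Genes of the early paralog groups pattern the hindbrain and neck, and later ones the trunk, limbs and tail end, while the forebrain forms without Hox expression. Cells of the connective tissues grown from the trunk or limbs keep part of this positional code in culture, and Hoxa9 and Hoxa10 are also used by blood progenitors.

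By GENCODE M21 on GRCm38, the 4 cluster A members lie on the minus strand of chromosome 6: Hoxa6 (ENSMUSG00000043219) at chr6:52206288-52208722, Hoxa7 (ENSMUSG00000038236) at chr6:52214491-52221854, Hoxa9 (ENSMUSG00000038227) at chr6:52223100-52231089 and Hoxa10 (ENSMUSG00000000938) at chr6:52231197-52240854. The 4 cluster C members lie on the plus strand of chromosome 15: Hoxc10 (ENSMUSG00000022484) at chr15:102966796-102971893, Hoxc9 (ENSMUSG00000036139) at chr15:102976439-102985099, Hoxc8 (ENSMUSG00000001657) at chr15:102990607-102994111 and Hoxc6 (ENSMUSG00000001661) at chr15:102998257-103011881. The gene identifiers in the deposited table were the same.

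The members resemble each other most in the stretch that encodes their DNA-binding homeodomain, so a read from there is the one most easily credited to the wrong Hox gene. Counting was by the match of short words to transcripts, with a default word of 31 bases. Over all protein-coding transcripts of the annotation, none of the 31-base words of Hoxa10 (3111 words), Hoxc10 (1879) or Hoxc6 (1551) occurred in another gene, and 2 of 3223 words of Hoxa9 did. Hoxa6 shared 28 of 844 words, with 4 other Hox genes, and Hoxa7 shared 29 of 2764, with 13 genes of which 3 were Hox genes.

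Hoxc8 carries a run of 52 bases of the CA repeat, and Hoxc9 a run of 64 bases of the CT repeat, both in the annotated 3′ UTR. Over all their shared words, Hoxc8 had words in 1224 other genes and Hoxc9 in 531, and only 4 words of Hoxc8 and 3 of Hoxc9 occurred in more than 100 other genes each. Of the 34 Hox genes scanned, 4 had a word found in more than 100 other genes, and the remaining pair were Hoxb6 and Hoxb9. The part of shared words in the counts below was not tested.

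The 5 members with at most 3 counts in any other mouse were Hoxa6, Hoxa9, Hoxa10, Hoxc6 and Hoxc10. Hoxa9, a factor of posterior patterning and of blood progenitors, had counts of 8, 15, 1, 11 and 3 in the 5 MSC mice at 1 week and of 5, 10, 13, 17 and 3 in the 5 IL-4 MSC mice. It had 0 counts in all 24 other mice. Each of the 10 cell-treated mice thus lay above every other mouse, and the MSC and IL-4 MSC mice overlapped.

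Hoxa10, used in the limb, the reproductive tract and blood progenitors, had 17, 15, 0, 4 and 5 counts in the MSC mice at 1 week and 10, 15, 13, 13 and 7 in the IL-4 MSC mice. The other 24 mice had 0. The MSC mouse at 0, replicate 3, was the exception to the separation. Pooled over the group, Hoxa10 reached 0.244 CPM in MSC mice and 0.35 CPM in IL-4 MSC mice at 1 week.

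Hoxc10, a gene of the lumbar region and hindlimb, had 27, 14, 1, 11 and 6 counts in the MSC mice at 1 week and 11, 22, 22, 19 and 9 in the IL-4 MSC mice, with 0 in the other 24. Here too all 10 cell-treated mice lay above the others. Replicate 3 was again the lowest MSC mouse.

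Hoxc6, a thoracic-level gene, had 23, 17, 3, 29 and 6 counts in the MSC mice at 1 week and 5, 23, 15, 26 and 14 in the IL-4 MSC mice. Outside them it had 6 counts in all, 3 in sham mouse 4, 2 in PBS mouse 1 at 3 weeks and 1 in IL-4 MSC mouse 5 at 3 weeks. On the CPM scale the 10 cell-treated mice were still above the highest of these. Hoxa6, the neighbour of Hoxa7, was barely covered, with 6 counts over the MSC mice at 1 week, 4 over the IL-4 MSC mice and 1 elsewhere, in MSC mouse 5 at 3 weeks, and it did not pass the filter on low counts.

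Against PBS mice at 1 week, where these 5 genes had 0 counts, the pooled levels are bounded by a floor of 3 counts over the group (0.0177 CPM). In MSC mice the level was at least 12.7-fold higher for Hoxa9, at least 13.8-fold for Hoxa10, at least 19.8-fold for Hoxc10 and at least 26.2-fold for Hoxc6. In IL-4 MSC mice the bounds were 16.4-fold, 19.8-fold, 28.3-fold and 28.3-fold. The floors cover counting error only. In all, 3 of the 8 members (Hoxa9, Hoxc6 and Hoxc10) had each of the 10 cell-treated mice above each of the other 24 in CPM, beside 0.134% of the 17131 genes tested. This separation is what chose the members and is not support for them.

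**Figure D1:**
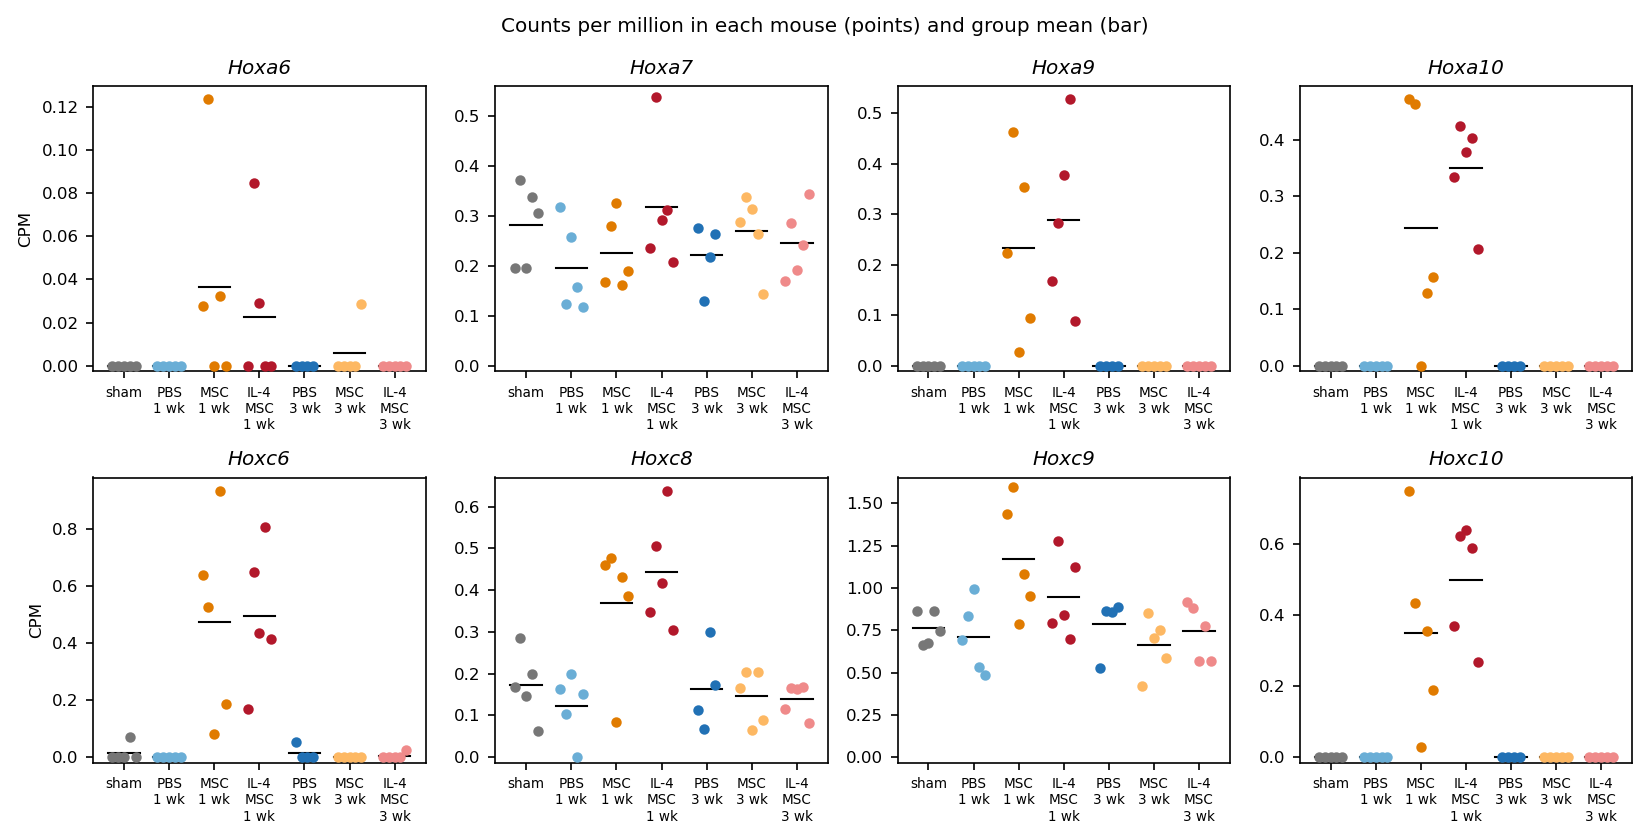
CPM (y axis) of each member in each of the 34 mice (points) by group (x axis), with the group mean as a bar. Hoxa9, Hoxa10 and Hoxc10 are at 0 in all 24 mice outside the 1-week MSC and IL-4 MSC groups, while Hoxa7 has counts in every mouse.

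The other 3 members had counts throughout. Hoxc8, which patterns the thorax, had 16.6, 15.4, 3.1, 13.4 and 12.3 estimated counts in the MSC mice at 1 week and 10.4, 17.8, 14.3, 20.6 and 10.3 in the IL-4 MSC mice. The PBS mice at 1 week had 5.16, 4.17, 6.25, 0 and 5.17, and in the remaining groups the counts ran from 2.04 to 12.4. In CPM, 9 of the 10 cell-treated mice lay above every other mouse, the exception being MSC replicate 3, and the pooled level was 2.95-fold that of PBS mice in MSC mice and 3.62-fold in IL-4 MSC mice.

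Hoxc9, a thoracic-level gene, was the most abundant member, with 51.7, 51.6, 28.9, 33.6 and 30.4 counts in the MSC mice at 1 week and 23.7, 45.3, 28.8, 22.6 and 37.8 in the IL-4 MSC mice. The PBS mice at 1 week had 21.8, 34, 31.1, 16.8 and 16.5. The groups overlapped, with 5 of the 10 cell-treated mice above the highest other mouse in CPM, and the pooled levels were 1.64-fold and 1.34-fold that of PBS mice.

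Hoxa7 did not follow the pattern. It had 6.02, 9.06, 12, 5.01 and 6.05 counts in the MSC mice at 1 week, 7.05, 19.1, 10, 10 and 7.01 in the IL-4 MSC mice and 10, 5.02, 8.04, 5.01 and 4 in the PBS mice. Sham mice spanned 6.04 to 14 counts. Only 1 cell-treated mouse, IL-4 MSC replicate 2, lay above all mice outside these groups. Counts of Hoxa7, Hoxc8 and Hoxc9 were not whole numbers in 33, 33 and 34 of the 34 libraries (tolerance 0.01), whereas those of the other 5 members were whole in all.

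Hoxa7, with counts in every mouse, lies beside Hoxa9 and Hoxa10, which had none outside the cell-treated mice, so the RefSeq windows around the starts of these 3 neighbours are shown (GRCm38.p6, minus strand, 250 bases before to 50 after the start). They are written 5′ to 3′ with CpG pairs in capitals.
Hoxa7, chr6:52218524-52218823: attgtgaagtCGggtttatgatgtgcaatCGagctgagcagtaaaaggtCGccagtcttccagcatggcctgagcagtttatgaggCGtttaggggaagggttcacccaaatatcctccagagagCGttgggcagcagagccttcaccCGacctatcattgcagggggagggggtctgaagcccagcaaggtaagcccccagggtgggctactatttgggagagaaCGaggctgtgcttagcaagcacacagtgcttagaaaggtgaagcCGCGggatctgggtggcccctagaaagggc
Hoxa9, chr6:52227321-52227620: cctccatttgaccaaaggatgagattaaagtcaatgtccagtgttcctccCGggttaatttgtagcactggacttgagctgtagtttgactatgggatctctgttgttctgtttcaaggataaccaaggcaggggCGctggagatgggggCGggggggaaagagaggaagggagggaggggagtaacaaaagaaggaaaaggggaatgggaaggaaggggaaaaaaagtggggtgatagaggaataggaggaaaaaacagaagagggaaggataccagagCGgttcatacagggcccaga
Hoxa10, chr6:52240805-52241104: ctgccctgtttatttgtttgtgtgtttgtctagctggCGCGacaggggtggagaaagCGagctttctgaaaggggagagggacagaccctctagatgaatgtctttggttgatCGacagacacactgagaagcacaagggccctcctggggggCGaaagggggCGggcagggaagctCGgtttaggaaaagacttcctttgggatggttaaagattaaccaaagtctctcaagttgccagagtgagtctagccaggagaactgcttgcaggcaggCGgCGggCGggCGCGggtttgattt

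The Hoxa7 window holds 9 CpG pairs, the Hoxa9 window 4 and the Hoxa10 window 12, against a median of 7 over 32851 windows of that length. Neither TATAAA nor CCAAT occurs on either strand of the 3 windows shown. TATAAA is found in 13.6% and CCAAT in 37.4% of all windows. A second annotated Hoxa10 start, at chr6:52234890-52235189, and the Hoxa6 window hold 21 and 26 CpG pairs. That second Hoxa10 window holds both TATAAA and CCAAT, and the Hoxa6 window holds CCAAT. A match or its absence describes these letters only. Windows for 4 of the 8 members were at hand.

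Levels between genes can be set side by side only per transcript length, as TPM (transcript levels scaled to a common total). Over the 10 cell-treated mice at 1 week, the mean TPM was 1.01 for Hoxc9, 0.699 for Hoxc6, 0.493 for Hoxc10, 0.484 for Hoxc8, 0.332 for Hoxa10, 0.314 for Hoxa7, 0.298 for Hoxa9 and 0.0884 for Hoxa6. In IL-4 MSC mice, for example, Hoxc6 had 0.707 ± 0.344 TPM (SD, n = 5) and Hoxc10 0.574 ± 0.19, so these neighbours in the order were closer than their spread. The cluster C members other than Hoxc9 and the cluster A members other than Hoxa6 thus ran from 0.298 to 0.699 TPM. In the other 24 mice the mean TPM was 0.678 for Hoxc9, 0.321 for Hoxa7 and 0.179 for Hoxc8. It was at most 0.00934, in Hoxc6, for the other 5 members. The order in the cell-treated mice is therefore not an order of what set them apart. In these whole-tissue libraries, more cells of a type and more RNA per cell cannot be told apart.

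The 5 members with at most 3 counts elsewhere summed to 76, 65, 5, 56 and 20 counts in the MSC mice at 1 week and to 31, 73, 64, 75 and 33 in the IL-4 MSC mice. Their summed level was 1.34 ± 0.897 CPM (SD, n = 5) in MSC mice and 1.65 ± 0.612 CPM (n = 5) in IL-4 MSC mice. MSC replicate 3 stood far below its group, at 0.136 CPM against 0.626 to 2.11 CPM in the other 4 MSC mice. Without it the MSC mean was 1.64 ± 0.686 CPM (n = 4). All other mice lay between 0 and 0.0722 CPM.

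The members were chosen for their 1-week levels in both cell-treated groups, so IL-4 MSC and MSC mice are set side by side as a description, and nothing is read from the count of calls. By edgeR's quasi-likelihood test with Benjamini-Hochberg adjustment, 0 of the 7 members tested were called between IL-4 MSC and MSC mice at 1 week, beside 8.69% of all genes tested. None of the 7 passed an unadjusted p of 0.05 either, and DESeq2 called 0. The log2 fold changes, IL-4 MSC over MSC, were 0.49 (SE 0.59) for Hoxa10, 0.48 (SE 0.53) for Hoxc10, 0.47 (SE 0.31) for Hoxa7 and 0.31 (SE 0.60) for Hoxa9. They were 0.27 (SE 0.37) for Hoxc8, 0.06 (SE 0.48) for Hoxc6 and −0.32 (SE 0.22) for Hoxc9. The standard errors of Hoxa9, Hoxa10, Hoxc6 and Hoxc10, from 0.48 to 0.60, leave room for a difference in either direction.

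At 3 weeks after injury Hoxa9, Hoxa10 and Hoxc10 had no count in any of the 10 cell-treated mice. The floor of 3 counts over the group allows up to 0.0182 CPM in MSC mice and 0.0172 CPM in IL-4 MSC mice. Set against that floor, the 1-week level of IL-4 MSC mice was at least 16.8-fold higher than the 3-week level for Hoxa9, at least 20.4-fold for Hoxa10 and at least 29.1-fold for Hoxc10. For MSC mice the bounds were 12.4-fold, 13.4-fold and 19.2-fold.

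Hoxc6 had 0 counts in MSC mice at 3 weeks and 1 count in 1 IL-4 MSC mouse, against 83 over the IL-4 MSC mice at 1 week, a ratio of 87.4 with a 95% counting interval of 15.3 to 3493. The members with counts everywhere stayed near their PBS levels. Hoxc8 had 2.09 to 7.28 counts in MSC mice, 3.09 to 6.22 in IL-4 MSC mice and 2.06 to 12.4 in PBS mice at 3 weeks. The 3 groups overlapped.

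At 3 weeks 0 of the 7 members tested were called higher in MSC than in PBS mice by edgeR, beside 0.0817% of all genes, and 0 were called higher in IL-4 MSC than in PBS mice, beside 2.17% of all genes. Between IL-4 MSC and MSC mice at 3 weeks 0 members were called in either direction, beside 3.47% of all genes. No member reached an unadjusted p of 0.05 in these 3 comparisons, and DESeq2 called 0 in each. Of these 7 genes 3 had no count in any of the groups compared, so the test could show nothing for them. For the rest, Hoxc9 for example differed from PBS by −0.24 (SE 0.25) on the log2 scale in MSC mice and by −0.06 (SE 0.24) in IL-4 MSC mice. When only the 2 groups compared were fitted, 1 member passed the filter on low counts in each of the 3 comparisons. The 0 called members are therefore a description.

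The cluster A and cluster C members lie on different chromosomes, and their sums were compared mouse by mouse. Over the 10 cell-treated mice at 1 week, log2(summed CPM + 0.1) of the cluster A members and that of the cluster C members had a Pearson's r of 0.795 and a Spearman's rho of 0.709. With the group mean removed from each mouse, r was 0.817. Leaving out the 2 mice farthest from the median of the cluster A sum (replicate 2 of each group) gave 0.743, and leaving out MSC replicate 3 gave 0.685, the lowest of the 10 values with 1 mouse left out. The 2 sums share their libraries, and the correlation is a description.

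**Figure D2:**
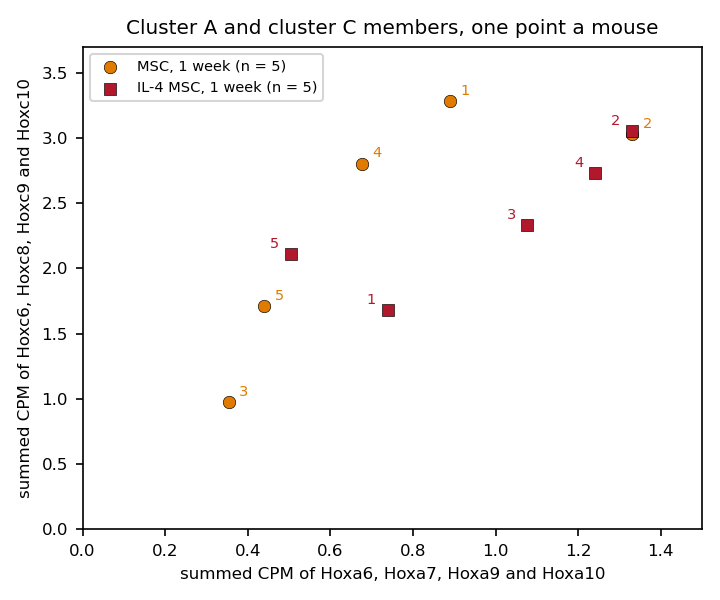
Summed CPM of the 4 cluster A members (x axis) against that of the 4 cluster C members (y axis) in the 5 MSC (circles) and 5 IL-4 MSC (squares) mice at 1 week, with replicate numbers. MSC replicate 3 has the lowest value on both axes.

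Among single members, Hoxa10 and Hoxc10 went together most closely over these 10 mice (r = 0.93, rho = 0.855), and Hoxa9 and Hoxc8 had an r of 0.834. Hoxa7 was the most apart. Its r with the other members lay between −0.0862 (Hoxc9) and 0.381 (Hoxa6). Hoxc9 also followed most members loosely. Its r was 0.76 with Hoxa6 and, Hoxa7 aside, lay between 0.199 (Hoxa9) and 0.415 (Hoxc6) with the rest.

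The Hox genes just outside the choice show how far along the clusters the pattern was seen. Of 39 Hox genes of the mouse 34 were measured, and none of cluster A beyond Hoxa10 was among them. Hoxb7 had 17 counts over MSC mice at 1 week and 22 over IL-4 MSC mice, Hoxb8 18 and 33, and Hoxc11 5 and 26, and all 3 had 0 counts in the other 24 mice. Hoxb9, the paralog of Hoxa9 and Hoxc9, had 71 and 102 counts against 15.3 to 23.5 in each other group, and 9 of the 10 cell-treated mice were above every other mouse. Hoxb6 had 27.7 and 40.2 counts against 1.03 to 8.27 in each other group. These genes belong to the trunk-level part of cluster B and to the next gene of cluster C.

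No cluster D gene measured stood apart in this way. Hoxd9, the cluster D paralog, had a pooled level of 0.238 CPM in the 10 cell-treated mice and 0.28 CPM in the others, Hoxd8 had 4 and 9 counts in the 2 sets, and Hoxd10 had 4 and 22. In cluster A, on the other side of Hoxa6, 0 cell-treated mice lay above the highest other mouse for Hoxa5 or Hoxa4. Hoxa5 had a pooled 0.0839 CPM in the cell-treated mice and 0.0682 CPM in the others, and Hoxa4 had 0.024 and 0.0926 CPM. The pooled levels of the others came from few mice. Hoxa5 had counts in 8 of the 10 cell-treated mice (median 2.5) and in 7 of the 24 others (median 0, highest 18). Hoxa4 had counts in 7 of the 10 and in 6 of the 24. In cluster C the step was less sharp, since Hoxc5 stood at 0.147 CPM against 0.0512 CPM and Hoxc4 at 0.249 against 0.307 CPM. These are descriptions of the contrast that chose the members.

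**Figure D3:**
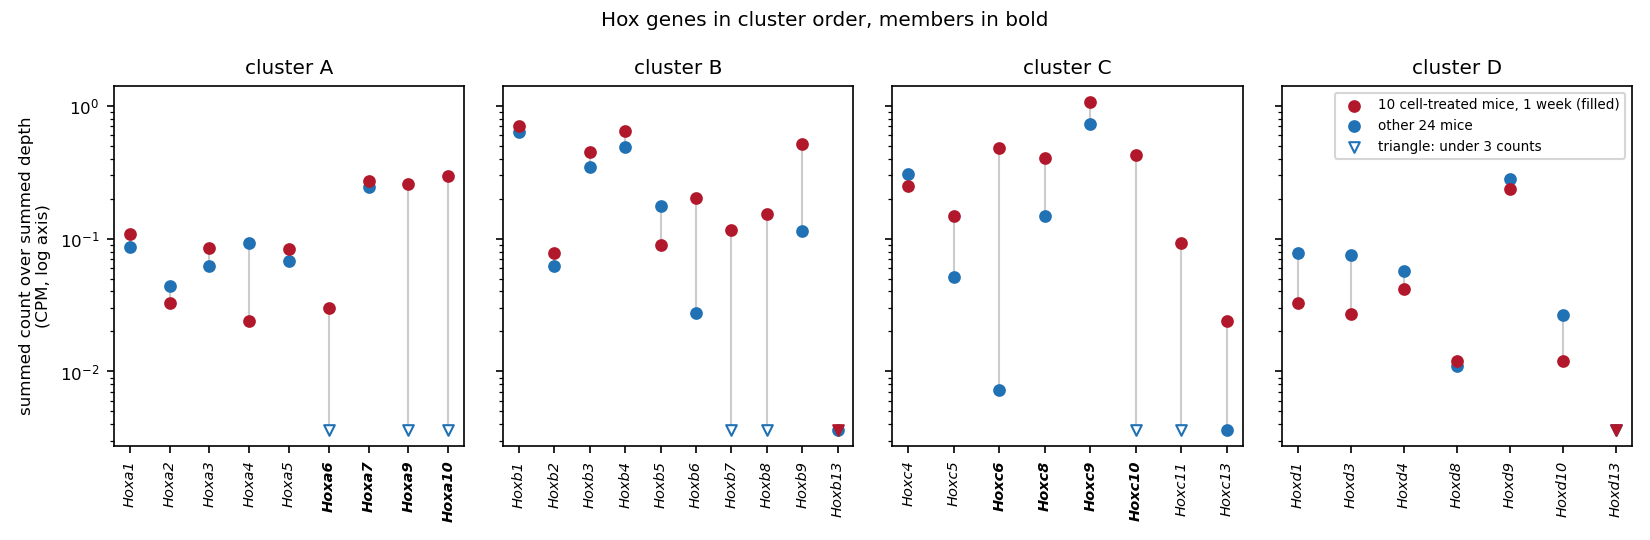
Pooled CPM (y axis, log scale) of 34 Hox genes in cluster order (x axis, members in bold) in the 10 cell-treated mice at 1 week (red) and the other 24 mice (blue), with triangles at the floor for genes under 3 counts. Hoxa9, Hoxa10, Hoxc10, Hoxb7, Hoxb8 and Hoxc11 have no count in the other 24 mice, and no cluster D gene shown has that pattern.

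Hox genes of paralog groups 1 to 5 varied between mice in another way. Summed over 15 genes, they had 321 counts in sham mouse 4, 290.1 in PBS mouse 1 at 3 weeks and 221.4 and 172.1 in MSC mice 5 and 2 at 3 weeks. In the cell-treated mice at 1 week the sum ran from 49.3 to 139.7. Most of the other mice were at or below 64.2, and most of the cell-treated mice at or above 78.4. Whether the anterior sum differed with the cells was not tested. The 3 mice with the most counts of these anterior genes were the mice with 3 counts of Hoxc6, 2 counts of Hoxc6 and 1 count of Hoxa6, which are 6 of the 7 counts that the 5 members had outside the 10 cell-treated mice. High anterior sums were thus seen with at most 3 counts of the 5 members, and member sums of 56 to 76 counts were seen with anterior sums of 62.5 to 121.5.

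**Figure D4:**
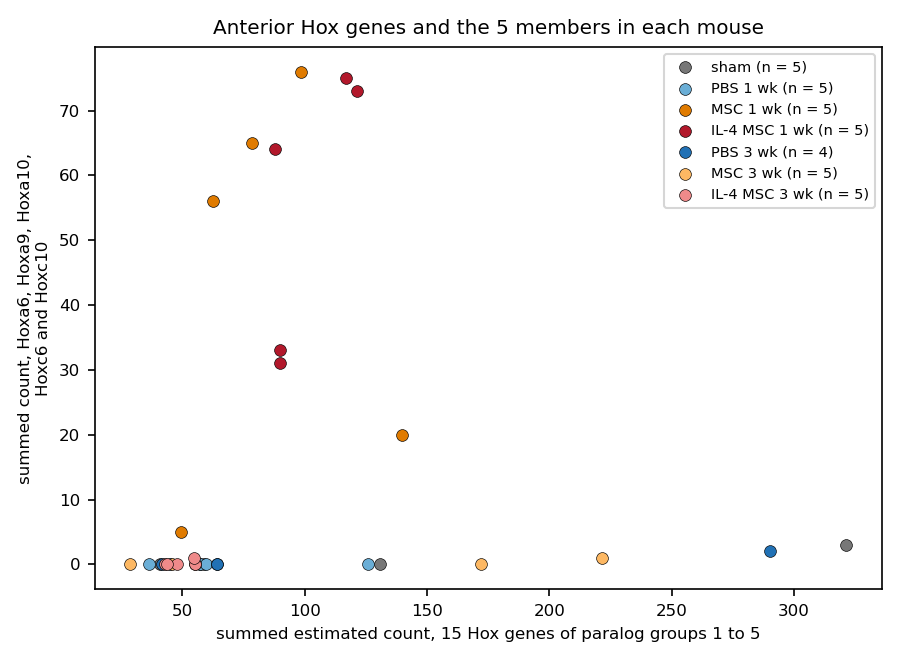
Summed count of 15 Hox genes of paralog groups 1 to 5 (x axis) against the summed count of Hoxa6, Hoxa9, Hoxa10, Hoxc6 and Hoxc10 (y axis), 1 point for each of 34 mice, coloured by group. The 4 mice with the highest anterior sums (172.1 to 321) have 0 to 3 counts of the 5 members.

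Among the 17124 other genes tested, the 10 whose log2 CPM followed the mean of the 7 tested members most closely over the 34 libraries were Fbln2, Ifi202b, Cdkn2a, Loxl2, Col3a1, Col5a2, Gm10260, Col6a2, Col1a2 and Bgn, with r from 0.892 to 0.952. Of these, Col1a2, Col3a1, Col5a2 and Col6a2 encode collagen chains, Fbln2 and Bgn other matrix proteins, Loxl2 a collagen cross-linking enzyme, and Cdkn2a the cell-cycle inhibitors of its locus. The libraries share treatment and depth, so a group difference alone gives a high r. Ranked by Spearman's rho instead, only 1 of the 10, Ifi202b, remained in the list, with a rho of 0.744.

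Fbln2, a matrix glycoprotein, had 38.3, 28, 10.4, 25.9 and 19.5 CPM in the MSC mice at 1 week and 27.3, 35.8, 23.9, 29.3 and 19.5 CPM in the IL-4 MSC mice. In every other mouse Fbln2 was at or below 9.96 CPM. Fbln2 in MSC replicate 3 was just above that limit, and it was the lowest of the 10 cell-treated mice.

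Cdkn2a had 91, 62, 8, 38 and 25 counts in the MSC mice at 1 week, 30, 101, 77, 91 and 53 in the IL-4 MSC mice, and 1 to 7 in the PBS mice. Ifi202b, an interferon-inducible gene, had 25, 10, 2, 20 and 10 counts in the MSC mice, 39, 65, 38, 39 and 25 in the IL-4 MSC mice and 0 to 4 in the PBS mice. In both genes MSC replicate 3 was again the lowest of the 10 cell-treated mice at 1 week.

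**Figure D5:**
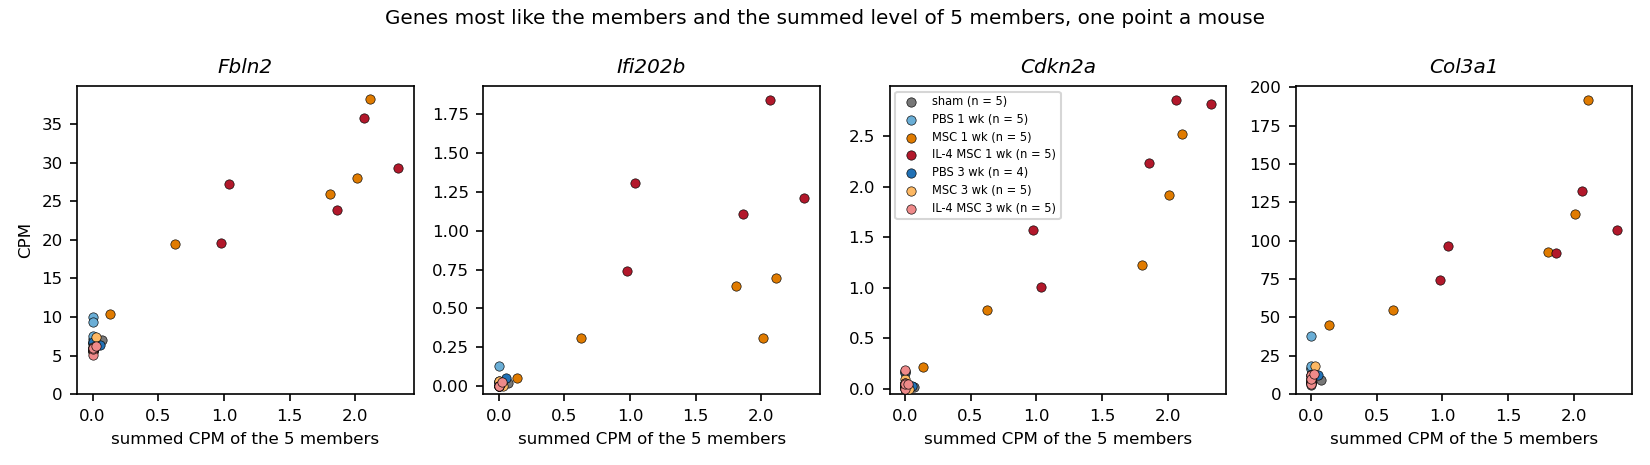
CPM of Fbln2, Ifi202b, Cdkn2a and Col3a1 (y axes) against the summed CPM of Hoxa6, Hoxa9, Hoxa10, Hoxc6 and Hoxc10 (x axis), 1 point for each of 34 mice, coloured by group. MSC replicate 3 at 1 week, with 0.136 CPM of the 5 members, is the lowest of the 10 cell-treated mice of that week in all 4 panels.

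Connective-tissue genes were compared through lists drawn up by cell type and function, but with earlier results of these data known. The counts of called genes, medians and p-values of these lists, here and below, are therefore a description. Of 20 genes of stromal matrix and myofibroblasts, 6 rose in MSC against PBS mice at 1 week by edgeR, namely Col1a1, Col1a2, Col3a1, Col5a2, Col6a2 and Lox, where 0.123% of all genes tested rose and 0.00% fell. Col3a1, a fibrillar collagen, rose by 2.29 (SE 0.30, adjusted p = 8.99e-05) on the log2 scale, and Lox, which cross-links collagen, by 1.40 (SE 0.28, adjusted p = 0.0273). The median of the list was 0.45 against 0.00 for all genes tested. These calls rested on the fit to all libraries. When only the 2 groups compared were fitted, 0 of 106 tested genes of all these lists were called higher. No gene of the other lists passed edgeR's adjusted test in MSC mice or was called by DESeq2, and 4 had an unadjusted p under 0.05, 3 of them mesenchymal transcription factors and 1 Hoxb9. Both 1-week comparisons share the same PBS mice.

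In IL-4 MSC mice 14 of the 20 matrix genes rose at 1 week, where 11.2% of all genes rose and 6.16% fell, with a list median of 1.03 against 0.00. Lox rose by 3.26 (SE 0.28, edgeR adjusted p = 3.89e-10) and Postn, a matrix protein of healing tissue, by 2.49 (SE 0.22, adjusted p = 4.32e-10). Of 8 surface proteins used to define stromal cells 5 rose, among them Ly6a (1.32, SE 0.21) and Cd44 (0.88, SE 0.19). Of 22 tested transcription factors of mesenchyme 3 rose, Twist1 by 0.85 (SE 0.23), Prrx2 by 0.56 (SE 0.18) and Prrx1 by 0.47 (SE 0.08). Against MSC mice at 1 week, 6 of the 20 matrix genes and 5 of the 8 surface genes were called higher by edgeR and 0 lower. There 8.69% of all genes were called in either direction. At 3 weeks Postn (1.06, SE 0.24) and Col6a1 (0.54, SE 0.14) were called higher than in PBS mice, where 2.17% of all genes were.

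Of the 7 other Hox genes that passed the filter, Hoxb9 rose in IL-4 MSC mice by 2.09 (SE 0.37, edgeR adjusted p = 7.94e-05), whereas in MSC mice its difference on the log2 scale was 1.58 (SE 0.38), with an edgeR adjusted p of 0.143. Without MSC replicate 3, 1 of these Hox genes was called in MSC mice. The count in IL-4 MSC mice depends on the filter and the tool, with 6 of the other Hox genes called higher without a filter or with a total of at least 10 counts, and 4 by DESeq2 (Hoxb6, Hoxb8, Hoxb9 and Hoxc5).

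Markers of other cell types are given for 1 week, and in IL-4 MSC mice their counts stand beside 11.2% of all genes called higher and 6.16% called lower than in PBS mice. Of 8 monocyte and macrophage markers 7 rose in IL-4 MSC mice, with summed levels of 246 to 367.6 CPM in IL-4 MSC, 127.7 to 199.8 CPM in MSC and 108.7 to 180.7 CPM in PBS mice. Of 7 tested markers of blood progenitors 1, Cd34, rose in IL-4 MSC mice, by 0.44 (SE 0.10) on the log2 scale. Of 10 markers of meningeal fibroblasts 0 were called by edgeR or DESeq2 in either group, with 1 and 0 at an unadjusted p under 0.05 in IL-4 MSC and MSC mice, and their sums ran from 53.9 to 68.1 CPM in MSC, 58.4 to 67.1 CPM in IL-4 MSC and 58.4 to 67 CPM in PBS mice. Of 8 markers of pericytes and vascular smooth muscle Higd1b rose and Rgs5 and Vtn fell in IL-4 MSC mice.

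Markers of the striatum, a region near the dissected block, summed to 219 to 762.5 CPM in MSC, 364.6 to 739.9 CPM in IL-4 MSC and 244.9 to 348.2 CPM in PBS mice at 1 week, with 0 of 8 called by edgeR or DESeq2 in either group but 7 at an unadjusted p under 0.05 in IL-4 MSC mice. At 3 weeks, where the 5 members had 1 count over the IL-4 MSC mice, the striatal sum ran from 318.6 to 2173 CPM in those mice. It ran from 197.1 to 436.1 CPM in PBS mice, so the ranges overlapped. Even so, edgeR called all 8 striatal markers higher in IL-4 MSC than in PBS mice at 3 weeks, beside 2.17% of all genes. Their log2 fold changes ran from 2.05 (Pde10a) to 2.65 (Adora2a), and DESeq2 called 8 too. The part of these cell types and regions in the member counts was not tested.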

How the data were processed

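RNA from 34 mice was sequenced, and the authors trimmed the paired reads with cutadapt (2.4) and pseudo-aligned them with kallisto (0.46) to the protein-coding GENCODE vM23 transcripts. The deposited table holds estimated counts and TPM per gene and mouse, by the authors' kallisto run, and 63 columns of the authors' own comparisons (p, q and fold values), which were not used. Another PBS mouse at 3 weeks, which the study's methods leave out for its transcript counts, was not analysed here. Estimated counts were rounded for the tests, and CPM were scaled by the library's total of estimated counts. edgeR (4.0.16) was fitted to all 34 libraries and 7 groups (TMM, filterByExpr, quasi-likelihood F test, 2-sided, Benjamini-Hochberg over 17131 genes, threshold 0.05), with DESeq2 (1.42.0) as an alternative. The test was checked on simulated data. A floor of 3 counts stands for a count of 0. The members and the gene lists were chosen with earlier results of these data known. The text names all members, the other Hox genes with at least 10 counts, listed genes called at 1 week (at most 4 a list by size, and more where a count is spelled out) and the 10 genes most correlated with the members. Correlations are given without p. Nothing in the labels says that same-numbered mice share a litter or day, and sham mice of both weeks were pooled. Depth was 29838423 to 41554322 estimated counts, so that 3 counts equal 0.0722 to 0.101 CPM per library, and intervals and floors cover counting error only. Whether counting used strand is not given in the sources used here, so reads of antisense transcripts could not be told apart. Some sequences and 1 gene list are not reported here.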

Additional observations from a re-analysis of the deposited data

Results flagged for a closer look

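Some values stood far from the others of their group by Dixon's ratio, a test that chance passes about 1 time in 20. Over 55 sets of values 12 were found, several from the same mouse. A set with counts in 1 mouse and 0 in the rest passes whatever the count, so the 12 cannot be set against that rate. At 1 week Hoxc8 in MSC replicate 3 was at 0.0842 CPM, against 0.386 to 0.477 CPM in the other 4 MSC mice, and Hoxa6 in MSC replicate 2 was at 0.124 CPM, against 0 to 0.0322 CPM. Among mice without cells or at 3 weeks, members with 1 to 3 counts in 1 mouse did so, the other mice of the group having 0. Hoxc6 reached 0.0722 CPM in sham mouse 4, 0.0547 CPM in PBS mouse 1 at 3 weeks and 0.0262 CPM in IL-4 MSC mouse 5 at 3 weeks, and Hoxa6 reached 0.0287 CPM in MSC mouse 5 at 3 weeks. Those 4 mice were also apart in the sum of Hoxa6, Hoxa9, Hoxa10, Hoxc6 and Hoxc10, with the same values. In PBS mouse 1 at 3 weeks, Hox genes of paralog groups 1 to 5 summed to 290.1 counts, against 41.8 to 63.9 in the other 3 mice, and Hoxc9 was at 0.525 CPM, against 0.857 to 0.888 CPM.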

How the results depend on the processing

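Of 144 alternatives, 141 were held unchanged. A value without a test had to stay within its spread, and a count of genes at 0 or within a fixed ratio. Single genes could thus change sides: 44 called genes in place of 32 was held unchanged. For the correlation of the cluster sums, the spread was a standard error of 0.124 taken from the values with 1 mouse left out. Those same values were then judged by it and could hardly move, so the total of 141 is no measure of how firm the results are. All 58 alternatives for the members at 3 weeks and for IL-4 MSC against MSC mice gave 0 called members. The range with 1 mouse left out was 0 to 0. A fit to only the 2 groups compared tested 5 members at 1 week and 1 member in each 3-week comparison. At 3 weeks the 0 was thus largely fixed by the lack of counts.

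Listed genes called higher in MSC than in PBS mice at 1 week went from 6 to 0 when only the 2 groups compared were fitted (10 libraries in place of 34, and 106 in place of 115 listed genes tested), and ran from 4 without PBS replicate 1 or MSC replicate 1 to 8 without MSC replicate 3. In IL-4 MSC mice, with 1 mouse left out, those higher ran from 30 to 34 (32 with all mice) and those lower from 0, without IL-4 MSC replicate 3, to 3 (3 with all mice). Fitting only the 2 groups gave 44 higher and 4 lower, either other filter 37 higher, and DESeq2 35. Those lower in MSC mice stayed at 0. The correlation of the cluster sums ran from 0.685 to 0.842 with 1 mouse left out. Chosen after seeing the data, the sums of the members with at most 3 counts elsewhere gave an r of 0.913, and of 0.759 without MSC replicate 3.

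The replicate numbers were not used as pairs in the main fit. Of 28 same-numbered pairs, 19 had a correlation of deviations at or below 0.1. Pairs with different numbers were not set beside them, so this cannot show whether the mice were paired. With the number as a replicate block, listed genes higher were 5 in MSC and 35 in IL-4 MSC mice at 1 week against PBS, those lower 0 and 3, and called members 0 in all 4 tests of members. Depth limits the members too: a gene at 0 counts in a library could hold up to 0.101 CPM.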

Other observations

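Of the 17131 genes tested, 23 had all 10 cell-treated mice at 1 week above all other 24 mice in CPM, and 0 had all 10 below. Besides Hoxa9, Hoxc6 and Hoxc10 they included the collagen genes Col1a1, Col1a2, Col3a1 and Col6a2, the matrix genes Fbln2 and Bgn, the procollagen-processing enhancer Pcolce, the interferon-induced gene Bst2, Casp12, and Sprr1a. Sprr1a had 22 to 59 counts in the 10 mice and at most 21 elsewhere, and Bst2 had 287 to 1179 counts and at most 249 elsewhere. These genes were picked for the separation after their values were seen, so the values are a description. When all genes with a total of at least 10 counts were ranked by their correlation with the members, Nkx2-5 (r = 0.951) and Hoxb7 (r = 0.93) entered the 10 most like them.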
